A study of Canis lupus familiaris with 34 samples.

Results

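Primary osteosarcomas of the dog, malignant tumours of bone-forming cells, were ordered by how strongly they expressed 4 genes of bone matrix production, and the 9 highest were compared with the 9 lowest of 28 tumours. The tumours were chosen by a score, the mean log2(FPKM + 1) of IBSP, SPP1, OMD and SP7, where FPKM counts fragments per kilobase of a transcript, relative to the library's total. Since the 4 genes chose the tumours, their own levels are given as a description without a test. The groups are called bone matrix high and bone matrix low tumours here, after the score alone.

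The series holds 34 RNA sequencing libraries, made from total RNA with TruSeq RNA v2 per the labels, of which 30 come from primary bone tumours. The rest are a metastasis (DOS.6M), a pair of cell lines derived from earlier tumours, OSCA.78 and OSCA.8, and an osteoblast culture, CNOB. Both groups of 9 tumours share every label apart from their titles, including the breed Golden Retriever, while the series' design text names Rottweilers as well. The labels used here give no treatment, age, stage or tumour site, so the groups can be told apart by the score and by nothing in the labels.

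DOS.46 and DOS.46.2, which share a title number, were averaged and counted as 1 tumour, called DOS.46 from here on. DOS.100 and DOS.32 were averaged too, although the labels give them as separate samples, and are called DOS.100. Their deviations from the gene means correlated at r = 0.888 across 9503 genes with a median absolute log2 difference of 0.0899, and those of DOS.46 and DOS.46.2 at r = 0.801 with 0.0657. DOS.100 and DOS.32 differed in summed FPKM (533750 against 798100) and in the share of the 10 most abundant genes (14.3% against 39.1%). In the library measures below, each pair entered as its mean. Both averaged pairs belong to the high tumours. Among all 435 pairs of primary tumour libraries the next most alike were DOS.110 and DOS.115 (r = 0.684, median absolute difference 0.274), both low tumours, which were kept apart. The sources used here do not say whether they come from 1 dog.

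Osteoblasts first lay down an organic matrix rich in type I collagen and then mineralise it. Mineralisation depends on phosphate, which membrane transporters and matrix vesicle phosphatases supply, and on proteins such as bone sialoprotein that bind mineral. As osteoblasts become buried they turn into osteocytes, which make DMP1, the phosphate-regulating endopeptidase PHEX and the WNT inhibitor sclerostin. Osteosarcomas vary widely in how much of such matrix they make.

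Among the 4 score genes, IBSP (bone sialoprotein, an acidic protein of mineralised matrix) had 1242 FPKM in the lowest, 3030 in the median and 5170 in the highest of the 9 high tumours. In the 9 low tumours it had 48.6, 173 and 917 FPKM. It was the score gene whose groups did not overlap. SPP1, osteopontin, a phosphoprotein that osteoblasts share with osteoclasts and macrophages, had 521, 1755 and 3960 FPKM in the high tumours against 47.4, 352 and 630 in the low ones. There 8 of 9 high tumours lay above all low tumours. OMD, osteomodulin, a small leucine-rich proteoglycan of bone, had 70.6, 353 and 1225 FPKM against 7.82, 81.6 and 235, and 6 high tumours lay above all low ones. SP7, osterix, the transcription factor that commits cells to the osteoblast lineage, overlapped most, with 40.4, 87.6 and 128 FPKM against 7.72, 37.3 and 106. For SP7 only 4 high tumours exceeded every low tumour.

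**Figure D1:**
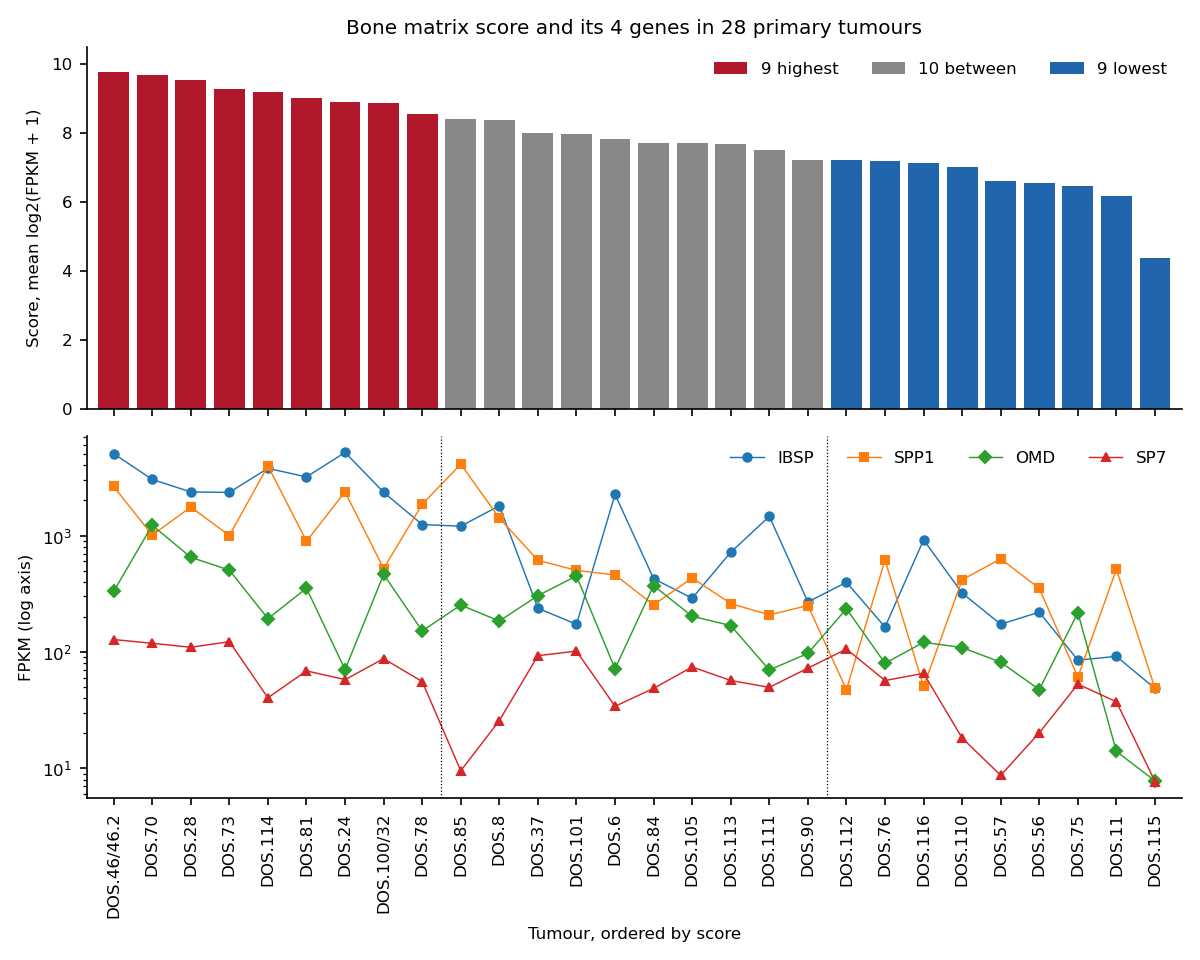
Upper panel: the bone matrix score, mean log2(FPKM + 1) of IBSP, SPP1, OMD and SP7, in 28 primary tumours as bars, coloured by group. Lower panel: FPKM of the 4 genes in the same tumours on a log axis, with dotted lines at the borders of the groups. IBSP runs from 1242 to 5170 FPKM in the 9 high tumours and from 48.6 to 917 in the 9 low ones, while SP7 overlaps between them.

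Scores ran from 8.55 (DOS.78) to 9.76 (DOS.46) in the high tumours and from 4.38 (DOS.115) to 7.21 (DOS.112) in the low ones. The order was continuous at both borders. DOS.78 at 8.55 was the last high tumour and DOS.85 at 8.41 the first outside. At the other border DOS.112 at 7.214 was counted as low and DOS.90 at 7.217 was not. DOS.115 stood apart at the bottom, since the next tumour, DOS.11, scored 6.18. The metastasis DOS.6M scored 6.76, against 7.83 for DOS.6, the primary tumour that shares its number.

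The low tumours were not without bone gene expression. Their lowest IBSP level, 48.6 FPKM, compares with 6.95 in the osteoblast culture and with 1.96 and 0.717 in the lines. Their lowest SPP1 level, 47.4 FPKM, compares with 4.38 in the culture and with 19 and 5.01 in the lines. OMD and SP7 differed from this. Their lowest levels, 7.82 and 7.72 FPKM, lay below the culture (12.2 and 24.7), and for OMD also below OSCA.8 (12). Every low tumour also scored above the culture (3.46) and above both lines (2.46 and 1.69). The description of the low tumours as poorly differentiated was set beside other markers. None of 21 mesenchymal progenitor genes, 12 cartilage genes and 14 fibroblast genes passed the test described next, in either direction. Only 0.181% of all genes passed it, so 0 calls in lists of this size cannot decide on that description. High minus low, 8 of 21 progenitor, 11 of 12 cartilage and 12 of 14 fibroblast differences were below 0, against 7633 of 14908 over all genes. In bulk tissue, fewer cells of a type and less RNA per cell cannot be told apart.

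Library measures were compared between the 9 high and 9 low tumours by an exact two-sided permutation test over 48620 ways to draw the groups, adjusted over 6 measures. Summed FPKM was 634100 ± 64810 (SD, n = 9) in the high and 710900 ± 111400 (SD, n = 9) in the low tumours (exact p = 0.0940, adjusted 0.564). The other 5 measures, which are the number of genes above 0, the share of the 10 most abundant genes, the upper quartile, the relative value of 1 fragment and the share of ribosomal protein genes, had adjusted p from 0.662 to 0.833 in the same exact test. Depth in reads is unknown, so no counting interval was computed.

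Across 14908 other genes, 24 were higher in the high tumours (0.161%) and 3 were lower (0.0201%) at a limma adjusted p below 0.05. They included the phosphate and mineralisation genes PHEX, PHOSPHO1 and SLC20A2, the sclerostin-binding receptor LRP4, the cadherin CDH15, the lysophosphatidic acid receptor LPAR3 and the amino acid transporter SLC36A2. NFATC2, a calcineurin-regulated transcription factor, led the 3 that fell. Without both averaged library pairs 8 genes passed, all higher and 7 of them among the 27, and without DOS.110 and DOS.115 19 passed, all higher and 16 of them shared. LPAR3, PHEX, RSPO3, SLC20A2 and SLC36A2 passed in both fits, CDH15 and BAMBI without DOS.110 and DOS.115 alone, and PHOSPHO1, LRP4, COL22A1 and NFATC2 in neither. The calls sit close to the threshold, with 16 of the 27 at an adjusted p above 0.04, and 765 genes (5.13%) were higher and 639 (4.29%) lower at an unadjusted p below 0.05. All differences below are on the log2(FPKM + 1) scale, high minus low, with the limma standard error, and understate changes of genes with low levels. The median difference over all genes was -0.0085.

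PHEX, a membrane endopeptidase of osteoblasts and osteocytes whose loss causes phosphate wasting and soft bone, had 3.998 FPKM in the lowest, 20.6 in the median and 45.2 in the highest high tumour. The low tumours had 0.0605, 0.722 and 5.72 FPKM. It rose by 3.18 ± 0.47 (SE, limma adjusted p = 0.0065). The high tumour DOS.100, at 3.998 FPKM, was the only one below the highest low tumour, DOS.110. PHOSPHO1, the phosphatase that releases phosphate inside matrix vesicles, had 11.9, 27.04 and 88.3 FPKM against 0.492, 3.35 and 29.2, and rose by 2.40 ± 0.48 (SE, limma adjusted p = 0.0493). DOS.112 accounted for the overlap, since the next low tumour, DOS.116, had 10.9 FPKM, under the lowest high tumour. SLC20A2, a sodium-dependent phosphate transporter, had 5.91, 16.9 and 72.0 FPKM against 1.87, 3.92 and 8.77, and rose by 2.08 ± 0.40 (SE, limma adjusted p = 0.0433). Its 7 upper high tumours lay above every low tumour. With each of the 18 tumours left out in turn, PHEX passed in all 18 fits, SLC20A2 in 7 and PHOSPHO1 in 5.

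These are 3 of 10 measured genes of a list for phosphate handling and mineralisation, with no member lower. Of the 10, PHEX and SLC20A2 passed without both library pairs and also without DOS.110 and DOS.115. The list's median difference was 1.75. SMPD3, a sphingomyelinase needed for skeletal mineralisation, missed the threshold at 2.33 (limma adjusted p = 0.0878), as did the sphingomyelin synthase SGMS2 at 1.86 (0.0757). At an unadjusted p below 0.05, 7 of the 10 were higher and none lower. The pyrophosphate exporter ANKH (1.52), the citrate transporter SLC13A5 (1.63) and the pyrophosphate-making enzyme ENPP1 (0.77) were among the genes not called. FAM20C, the kinase of secreted bone phosphoproteins, was at -0.19 and the second phosphate transporter SLC20A1 at -0.27. Both latter genes had similar medians in the groups, 53.7 against 62.1 FPKM for FAM20C and 34.1 against 38.3 for SLC20A1.

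**Figure D2:**
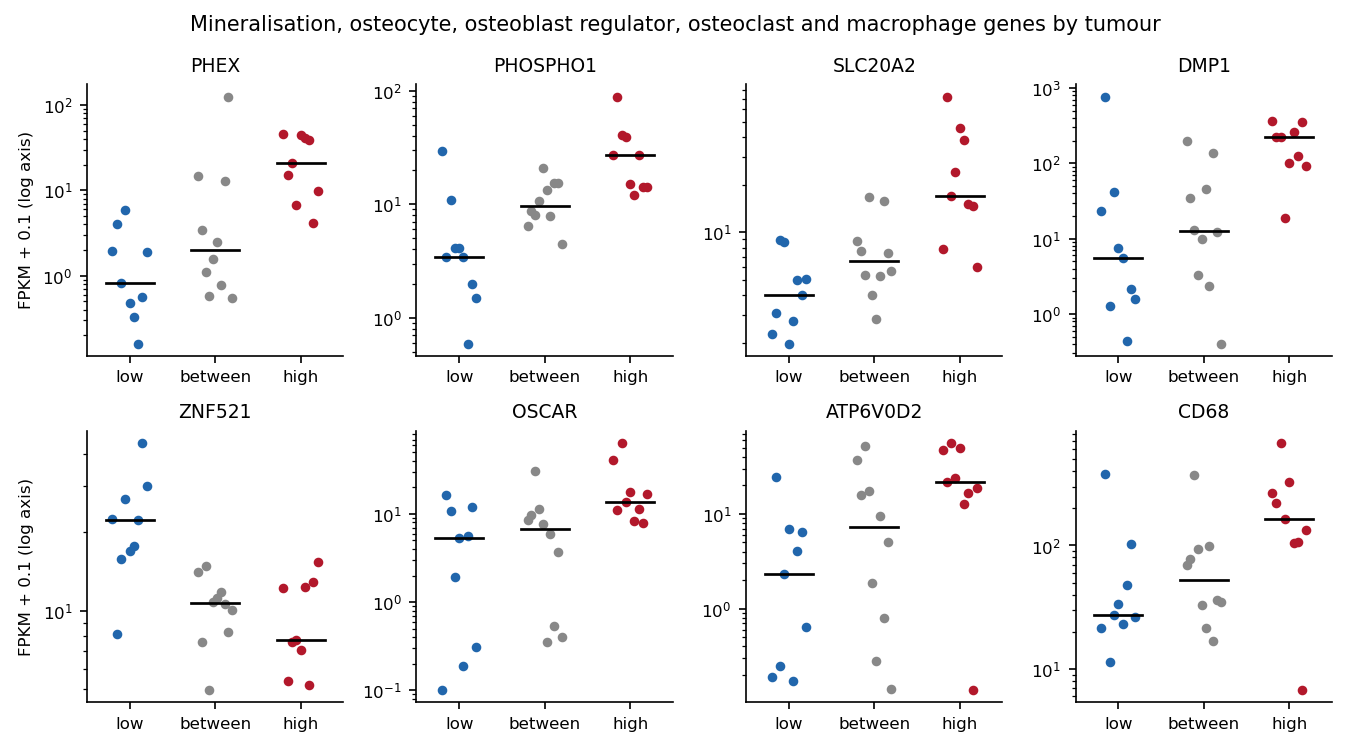
FPKM + 0.1 on a log axis in each of 28 primary tumours (points) for 8 genes, by group, with group medians as bars. PHEX, PHOSPHO1 and SLC20A2 passed the limma threshold between high and low tumours. DMP1, ZNF521, OSCAR, ATP6V0D2 and CD68 did not, and the low tumour DOS.76 held the highest DMP1 value of all, 762 FPKM.

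Osteocyte genes were mixed. DMP1, an acidic phosphoprotein of the osteocyte matrix, had 18.5, 222 and 363 FPKM in the high tumours and 0.345, 5.41 and 762 in the low ones. The value of 762 FPKM belonged to DOS.76, and the next low tumour, DOS.110, had 41.5. The difference was 3.92 ± 0.995 (SE, limma adjusted p = 0.143) with all 18 tumours, and 4.71 (limma adjusted p = 0.0024) without DOS.76. SOST, which encodes sclerostin, was at 2.48 (0.336). KERA, the proteoglycan keratocan, was at -1.28 ± 0.35 (SE, limma adjusted p = 0.182), with medians of 0.228 and 2.65 FPKM. FGF23, the hormone that lowers blood phosphate, was at -1.14 (0.803). Of 8 genes measured, 0 passed, the median difference was 0.15, and 3 were higher and 1 lower at an unadjusted p below 0.05.

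Among structural proteins of bone, COL22A1, a collagen found at tissue junctions, was the only one of 14 to pass. It had 6.95, 35.2 and 479 FPKM in the high tumours against 0.0647, 2.86 and 15.7 in the low ones, and rose by 3.40 ± 0.66 (SE, limma adjusted p = 0.0493). Its maximum came from DOS.81, and DOS.100 was the only high tumour within the range of the low ones. The gene passed in 5 of the 18 fits that leave out 1 tumour. The list's median difference was 0.23. COL24A1, a fibrillar collagen of developing bone, was at 1.37 (0.0757). The second chain of type I collagen, COL1A2, had medians of 14170 and 6721 FPKM and a difference of 0.81 ± 0.34 (SE, limma adjusted p = 0.444). SPARC, osteonectin, was at 0.58 (0.581). The minor collagens COL5A1 (-0.03) and COL5A2 (0.19), the proteoglycans ASPN (-0.22) and OGN (-0.46) and tenascin TNN (-1.37) were not called either.

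Collagen folding, cross-linking and cleavage enzymes had a median difference of 0.16, with members from -0.65 to 1.92. None of 28 passed, where 0.181% of all genes did. At an unadjusted p below 0.05, 2 were higher and 1 lower. The cross-linking oxidase LOXL4 was at 1.92 and the procollagen protease ADAMTS14 at 0.82 (limma adjusted p = 0.184 each). Of 14 secretory pathway genes 0 passed, with a median of 0.18 and SEC31A (0.39) and PDIA4 (-0.46) the nearest to the threshold.

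Osteoblast transcription factors other than SP7 did not pass either (0 of 18, median difference 0.18). ZNF521, a zinc finger protein that holds back osteoblast maturation, was at -1.14 ± 0.27 (SE, limma adjusted p = 0.0990), with 5.09, 7.60 and 15.3 FPKM in the high tumours against 8.06, 22.2 and 43.8 in the low ones. It passed the limma threshold without DOS.76, at -1.30. DLX3 was at 1.81 (0.211), DLX5 at 0.23 and MSX1 at 0.13. RUNX2, BGLAP, ALPL, COL1A1, MEPE and IFITM5 could not be looked up by symbol and were not analysed here.

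WNT signalling drives bone formation. One of 23 WNT antagonists, receptors and targets rose. This was RSPO3, a secreted enhancer of WNT signalling, with 1.63, 4.44 and 9.68 FPKM in the high and 0.0519, 1.05 and 2.13 in the low tumours, a difference of 1.36 ± 0.28 (SE, limma adjusted p = 0.0493). At an unadjusted p below 0.05, 7 members were higher and 5 lower, with a list median of 0.10. APCDD1, an inhibitor at the cell surface (1.78), DKK1, a secreted inhibitor (1.68), and the transcription factor LEF1 (1.10) had adjusted p of 0.0824, 0.178 and 0.212 by limma. On the negative side were the secreted inhibitor FRZB (-1.75), RSPO2 (-1.34), DKK3 (-1.16) and the target AXIN2 (-0.90), with limma adjusted p from 0.322 to 0.430. LRP4, outside that list, a receptor that binds sclerostin and anchors it on bone cells, rose by 2.01 ± 0.40 (SE, limma adjusted p = 0.0493), with 14.8, 27.7 and 80.3 FPKM against 1.37, 6.82 and 32.4. The low tumour DOS.76 made that overlap, at 32.4 FPKM. RSPO3 passed in 5 and LRP4 in 3 of the 18 fits that leave out 1 tumour.

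Of 21 genes of BMP and TGF-beta signalling, BAMBI rose. BAMBI is a pseudoreceptor that dampens this signalling, and it had 54.5, 115 and 199 FPKM in the high tumours against 5.96, 38.3 and 73.2 in the low ones (1.84 ± 0.38 SE, limma adjusted p = 0.0493). A single high tumour, DOS.78, lay within the range of the low ones, and the call stood in 3 of the 18 fits that leave out 1 tumour. The ligands BMP3 (1.61), BMP6 (1.08) and BMP2 (0.83) and the inhibitory SMAD6 (0.93) had limma adjusted p from 0.310 to 0.395. The BMP antagonist CHRDL1 was at -2.21 (0.222). The list had a median of 0.07, with 5 higher and 1 lower at an unadjusted p below 0.05.

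Several of the largest rises were in genes outside the bone lists. CDH15, M-cadherin, known as an adhesion protein of muscle precursor cells, had 18.9, 59.1 and 155 FPKM in the high tumours against 0.177, 4.11 and 23.01 in the low ones. It rose by 3.18 ± 0.54 (SE, limma adjusted p = 0.0198). None of 15 skeletal muscle genes passed. Their summed level was 28.4 to 345 FPKM (median 84.3) in the high and 21.5 to 473 (median 43.3) in the low tumours. The part of muscle content in the rise of CDH15 was not tested. LPAR3 had 11.9, 27.8 and 51.5 FPKM against 0.923, 3.04 and 10.04 and rose by 2.51 ± 0.37 (SE, limma adjusted p = 0.0065). It was 1 of 2 genes (0.0134% of those tested) whose high tumours all lay above every low tumour. The other was ATRNL1, an attractin-like membrane protein, with 1.86, 2.58 and 6.46 FPKM against 0.267, 0.706 and 1.53 (1.13 ± 0.20 SE, limma adjusted p = 0.0295). In the opposite direction 1 gene (0.00671%), which has no symbol in the table and was not called, separated the groups.

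SLC36A2, a transporter of small amino acids such as proline and glycine, had 7.30, 17.1 and 26.2 FPKM in the high tumours against 0.0305, 1.83 and 11.6 in the low ones. The rise was 2.81 ± 0.40 (SE, limma adjusted p = 0.0065), and DOS.112 was the only low tumour to reach the high range. Of these genes with a symbol, TFPI2, a secreted inhibitor of serine proteases, was the most abundant, at 177, 406 and 1183 FPKM against 11.8, 93.7 and 231. It rose by 2.57 ± 0.51 (SE, limma adjusted p = 0.0493) and passed in 4 of the 18 fits that leave out 1 tumour. FANK1 (2.55) and the death-associated kinase DAPK2 (1.95) rose as well, with limma adjusted p of 0.0373 and 0.0433 and calls in 9 and 5 such fits. The claudin CLDN11 (1.89), ADSSL1 (1.80), the inhibitory G protein subunit GNAI1 (1.72), the SLIT receptor ROBO2 (1.59), the limb homeobox gene SHOX2 (1.43) and the chromatin organiser SATB1 (1.18) were also among the genes called higher. A further 3 genes that rose have no symbol, with differences from 1.82 to 2.56.

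**Figure D3:**
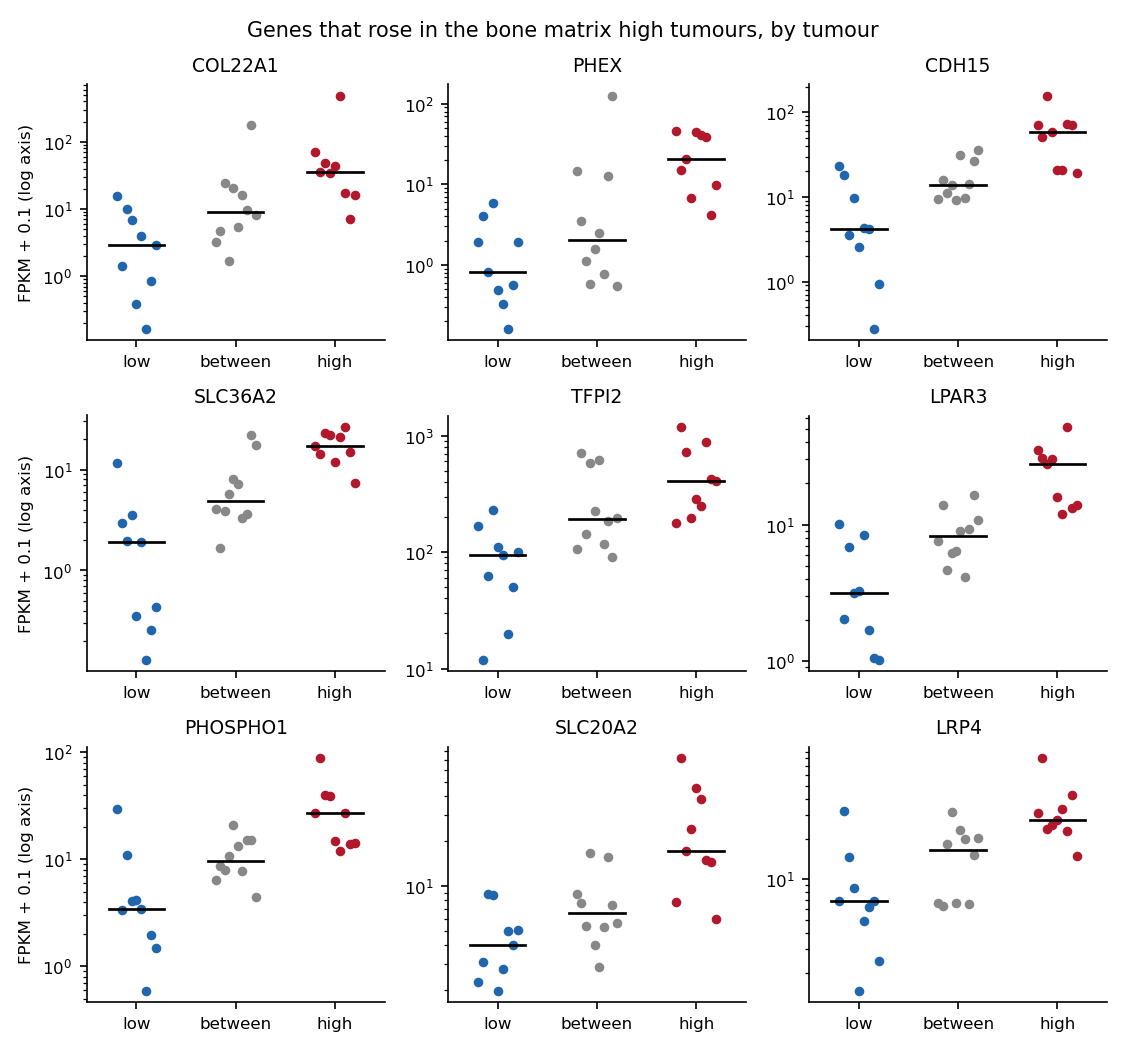
FPKM + 0.1 on a log axis in each of 28 primary tumours (points) for 9 genes that rose, by group, with group medians as bars. LPAR3 separates the high tumours (11.9 to 51.5 FPKM) from the low ones (0.923 to 10.04), and in the other 8 genes 1 or more tumours overlap.

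Genes that fell were few. NFATC2 had 1.77, 4.08 and 6.34 FPKM in the high tumours against 6.29, 9.71 and 35.4 in the low ones, a difference of -1.47 ± 0.28 (SE, limma adjusted p = 0.0433). One tumour on each side, DOS.46 and DOS.116, made the overlap, and 6 of the 18 fits that leave out 1 tumour called it. IGSF11, an adhesion protein (-1.22, adjusted p = 0.0493), and C1ORF167 (-1.15, 0.0499) had medians of 0.225 and 0.367 FPKM in the high tumours against 2.39 and 2.001 in the low ones by the same limma test, with 3 and 2 such fits.

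Osteoclasts resorb bone and also express SPP1, so their genes bear on the score. None of 10 passed, 5 were higher and none lower at an unadjusted p below 0.05, and the median difference was 0.82. ATP6V0D2, a proton pump subunit needed for osteoclast fusion, had 0.0381, 21.5 and 55.5 FPKM in the high tumours against 0.0719, 2.202 and 24.3 in the low ones (2.54 ± 0.73 SE, limma adjusted p = 0.197). It passed without DOS.76 (2.91) and without DOS.100 (3.07). The osteoclast receptor OSCAR was at 2.07 ± 0.58 (SE, limma adjusted p = 0.184). Summed over the 10 genes the level was 67.7 to 464 FPKM (median 198) in the high and 81.7 to 314 (median 129) in the low tumours. The defining osteoclast genes ACP5, CTSK and MMP9 could not be looked up by symbol. Of 9 genes by which bone cells steer osteoclasts 0 passed (median 0.22), with the osteoclast differentiation factor TNFSF11 at 1.16 (0.388) and SEMA4D at 0.88 (0.353). The part of osteoclast content in the differences above was not tested.

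Macrophage genes, which also bear on SPP1, did not separate the groups. Of 18 genes 0 passed, the median was 0.0076, and the summed level was 157 to 2380 FPKM against 193 to 1965. CD68, the one member higher at an unadjusted p below 0.05, was at 1.80 (limma adjusted p = 0.401), with medians of 163 and 27.5 FPKM, and MRC1 was at -0.94 (0.516).

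Cartilage genes leaned to the low tumours without passing (0 of 12, median -0.61, 2 lower at an unadjusted p below 0.05). SCRG1 had 0.293, 4.28 and 15.2 FPKM in the high tumours against 0, 33.1 and 536 (-2.65, limma adjusted p = 0.298), and COMP was at -1.70 (0.521). SCRG1 passed without DOS.76 (-3.25). Fibroblast genes gave 0 of 14 and a median of -0.51, with the microfibril protein MFAP5 at -2.55 (0.262), or -3.04 and called without DOS.76, and GSN at -0.88 (0.483). Progenitor genes gave a median of 0.22, with SOX4 at 0.69 (0.303) and NES at 0.83 (0.329). For matrix receptors 0 of 16 passed (median -0.06), with ITGA2 at 1.55 (0.178), or 1.81 and called without DOS.100, and ITGA8 at -1.36 (0.289).

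In the immediate early list, whose genes respond quickly to stimuli and to handling of tissue, all 18 differences were below 0 with a median of -0.72. None passed, and 5 were lower at an unadjusted p below 0.05, among them JUN (-1.12, limma adjusted p = 0.302) and ATF3 (-1.09, 0.322). All 16 interferon response genes were also below 0 (median -0.42, none at an unadjusted p below 0.05, CMPK2 at -0.66 and IFI6 at -1.10). All 25 cell cycle genes were above 0 (median 0.28, none at an unadjusted p below 0.05), with the proliferation marker MKI67 at 0.60 (0.686) and PCNA at 0.47 (0.578). Over all genes 7268 of 14908 differences were above 0. Members of a list share tumours, so these counts of signs carry no test. The part of handling or of proliferation in the 27 calls was not tested.

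Markers of further cell types gave 0 calls in each list. Since 0.181% of all genes were called, 0 calls says little about lists of 4 to 16 genes. The same holds for the lists above that gave 0 calls. Endothelial genes had the largest median among them, 0.60 over 15 genes, with FLT1 at 1.05 (0.369) and PLVAP at 0.95 (0.534), and summed levels of 254 to 3027 FPKM against 168 to 1295. The medians were 0.17 for 12 pericyte and smooth muscle genes (TAGLN at -1.75, SYNPO2 at -0.82), -0.27 for 16 T cell genes (CD8B at -0.55, CCR7 at -0.33) and -0.10 for 6 B and plasma cell genes (CD22 at -0.65, DERL3 at 0.37). They were 0.05 for 8 neutrophil and mast cell genes (HDC at -0.46, MS4A2 at -0.56), 0.22 for the skeletal muscle genes (MYLPF at 1.43, MB at 0.86) and -0.26 for 5 adipocyte genes (PLIN1 at -0.26, PLIN4 at -0.33). For 5 erythroid genes the median was 0.19 (HEMGN at -0.46, EPB42 at 0.14) and for 4 epithelial genes -0.01 (CLDN4 at 0.41, CLDN7 at -0.13). Hypoxia and glycolysis genes (9, median -0.05, KDM3A at -0.52, P4HA1 at 0.33) and genes linked to osteosarcoma (14, median 0.29) gave 0 calls as well. Among the latter the growth factor adaptor GRB10 was at 0.82 (0.283) and the tumour suppressor RB1 at 0.55 (0.559).

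**Figure D4:**
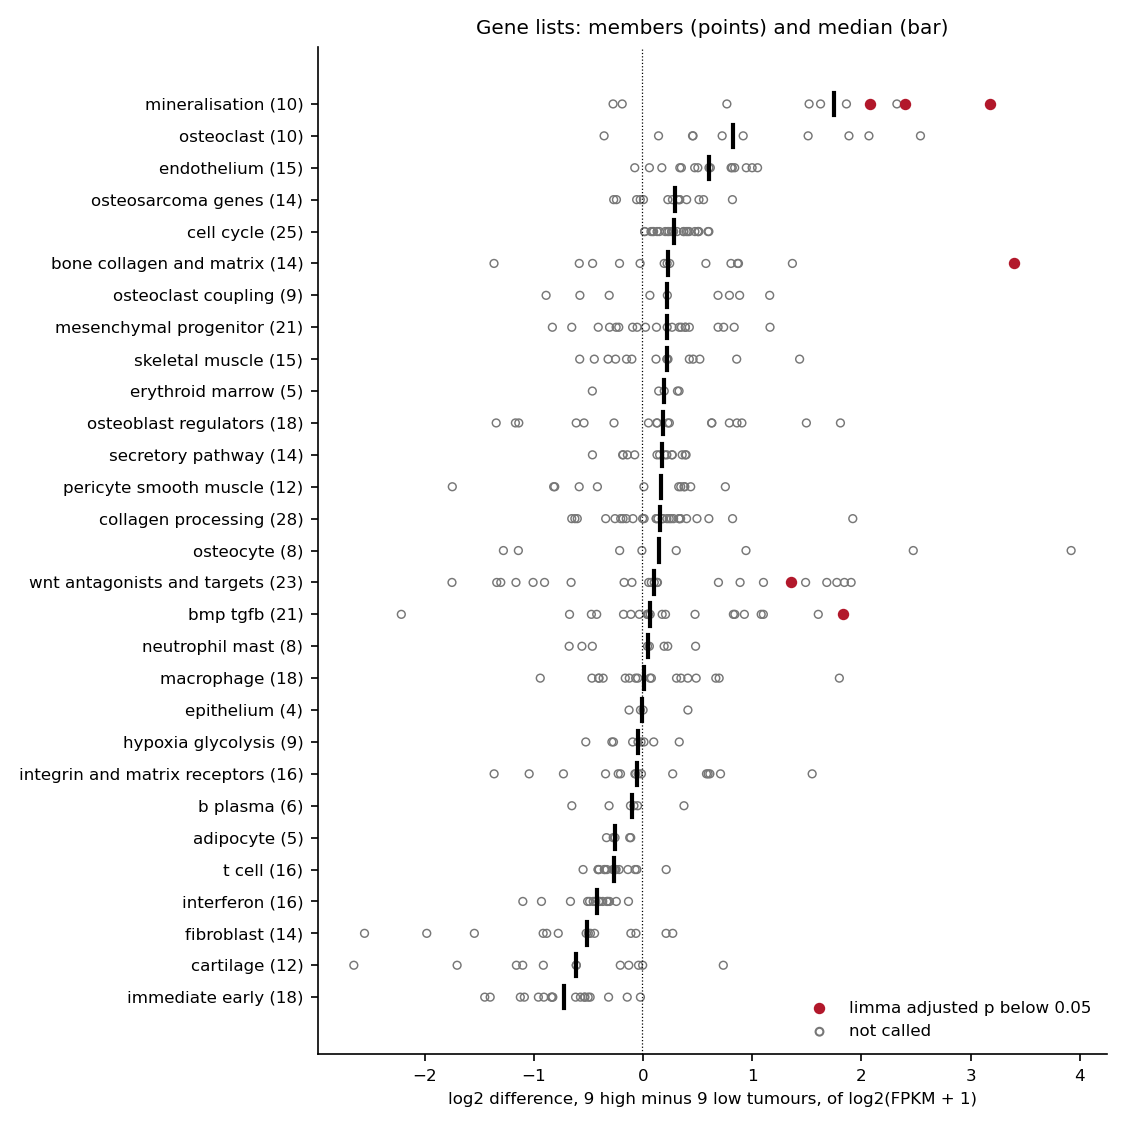
Log2 difference (high minus low tumours, of log2(FPKM + 1)) of each measured member of 29 gene lists, with the number of members in brackets and the list median as a bar. Filled points passed a limma adjusted p of 0.05. The mineralisation list has the largest median, 1.75, and 3 of its 10 genes passed.

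The number of calls moved with single tumours. It was 143 without DOS.76, the low tumour with 762 FPKM of DMP1, and 102 of these were higher. It fell to 4 without DOS.57, to between 7 and 9 without any one of DOS.73, DOS.114, DOS.81, DOS.24, DOS.115, DOS.75 and DOS.56, to 11 without DOS.28 or DOS.11, and to 15 without DOS.46 or DOS.116. All 27 genes kept their direction in each of the 18 fits. PHEX, LPAR3 and SLC36A2 passed in all 18 (adjusted p at most 0.0248 by limma), as did 1 gene without a symbol, CDH15 and ADSSL1 passed in 16, and 18 of the 27 passed in at most 9. An exact permutation test of each gene, adjusted over all genes, called 0, with a lowest adjusted p of 0.112 and 1421 genes at an unadjusted p below 0.05. The smallest p this test can give is 4.11e-05, so a gene alone at that floor could not pass after adjustment over 14908 genes. Its 0 calls therefore cannot decide on single genes.

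**Figure D5:**
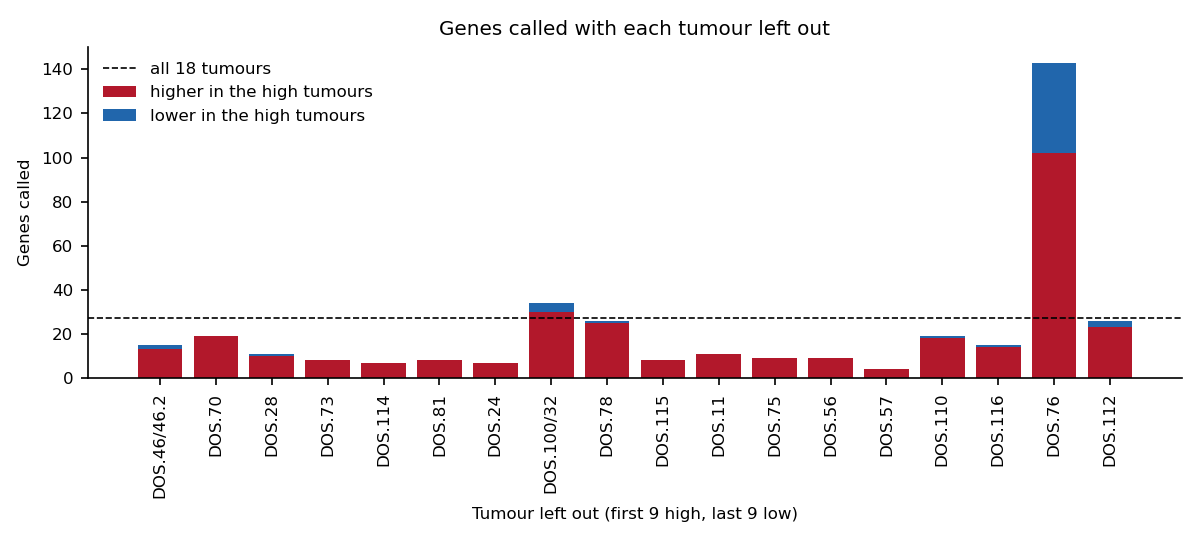
Number of genes called (limma adjusted p below 0.05) with each of the 18 tumours left out in turn, as stacked bars for genes higher and lower in the high tumours. The dashed line marks the 27 genes called with all 18 tumours, and the bars run from 4 without DOS.57 to 143 without DOS.76.

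The calls also depended on the genes of the score. Without SP7, the score gene that overlapped most, 5 genes passed, all higher and all among the 27, PHEX (3.49, limma adjusted p = 0.00093) and SLC20A2 (2.19, 0.0255) being among them. LPAR3 (2.25, 0.0599), SLC36A2 (2.504, 0.0748), CDH15 (2.87, 0.111) and PHOSPHO1 (2.27, 0.111) were not called there. Without OMD all 9 high and 8 of the low tumours stayed, with DOS.90 in place of the low tumour DOS.76. There 117 higher and 36 lower genes passed, 26 of them among the 27. Without SPP1 26 higher and 5 lower genes passed, with 17 shared. Without IBSP the score moved 2 tumours out of each group and called 24 higher and 11 lower genes, of which 6 were among the 27. CDH15 still passed (2.92, limma adjusted p = 0.0364), while PHEX (1.89, 0.484), LPAR3 (1.82, 0.0811), SLC36A2 (2.27, 0.0655), PHOSPHO1 (2.01, 0.101) and SLC20A2 (1.89, 0.0515) did not. COL22A1 (2.41, 0.369), BAMBI (1.49, 0.180) and NFATC2 (-0.78, 0.259) also lost their calls. The 7 highest against the 7 lowest tumours, without DOS.76, DOS.112, DOS.78 and DOS.100, gave 154 higher (1.03%) and 68 lower genes (0.456%). In that fit 5 of 10 mineralisation genes and 5 of 10 osteoclast genes were higher. A slope on the score over all 28 tumours gave 86 rising (0.577%) and 66 falling genes (0.443%), with 5 of 10 mineralisation and 2 of 10 osteoclast genes rising.

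The 10 tumours between the groups, with scores from 7.22 to 8.41, give values that the comparison did not use. Of the 24 higher genes, 10 had a slope above 0 on the score there (41.7%), against 48% of all genes. Their median slope was -0.20, against -0.03 over all genes. No gene passed limma's adjusted threshold for the slope and 1469 (9.85%) had an unadjusted p below 0.05. Of the 24, FANK1 was positive (2.59) and SLC36A2 (-2.02), CDH15 (-1.18) and RSPO3 (-1.50) were negative at an unadjusted p below 0.05. All 3 lower genes had slopes below 0. In PHEX the middle tumours ran from 0.453 to 124 FPKM with a median of 1.93, and the highest was DOS.111.

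In the osteoblast culture 16 of the 24 higher genes (66.7%) lay below the median of the low tumours, against 51.3% of all genes tested, with PHEX at 0.0753, CDH15 at 0.0907 and PHOSPHO1 at 0.324 FPKM. TFPI2, at 2039 FPKM there, was 1 of 2 above the median of the high tumours. In OSCA.8 17 of the 24 (70.8%) and in OSCA.78 12 (50%) lay below the median of the low tumours, against 50.2% and 50.3% of all genes. SLC36A2 was listed at 0 in the culture and both lines. ATRNL1 (4.67 and 6.26 FPKM in the lines) and RSPO3 (4.96 in OSCA.78) exceeded the median of the high tumours in a line. In the metastasis 6 (25%) lay below the median of the low tumours, against 47.8% of all genes, and PHOSPHO1, at 34.9 FPKM, was the one above that of the high tumours. These are single samples or a pair of lines, without a test.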

How the data were processed

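The deposited table holds 23988 genes and 34 libraries. Its header names no unit, and its values were read as FPKM computed by the authors, since the tools in the submitters' processing notes are FastQC 0.11.2, TopHat2 2.0.13 and Cufflinks 2.2.1, with the build canFam3 and no order of steps. The sources used here name no filter or normalization, and read depth is unknown. Of the genes, 9653 carry an identifier only and enter no list. Genes with at least 1 FPKM in at least 2 of 28 tumours were kept (14912), 1 FPKM was added and log2 taken.

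Groups of 9 were compared with limma 3.58.1 under R 4.3.3 (lmFit, eBayes with trend and robust, two-sided), with Benjamini-Hochberg adjustment over 14908 genes, the 4 score genes left out. The same test gave slopes on the score in the 10 middle tumours. The p-values measure the spread between these libraries, which may be in part technical. Separate dogs are not stated, and groups cut from a score of the same libraries share any technical factor with it. The procedure was tested on simulated data, with genes drawn independently of each other and groups fixed in advance. That simulation does not cover groups cut from a score of the same libraries or single outlying tumours.

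The tumours, the score and the gene lists were chosen with earlier results of these data known. Named genes are the 12 largest rises and falls among called genes with a symbol and a mean of at least 5 FPKM in the higher group, and per list the 3 largest called changes, or the 2 lowest adjusted p where none passed. A few named genes are not reported here. Other list members and called genes given with values were chosen after those were seen. Permutation tests ran in Python 3.11.15 with scipy 1.17.1. Coordinates and sequences are not printed, since the gene table at hand is of another build.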

Additional observations from a re-analysis of the deposited data

Results flagged for a closer look

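Within each group of 9 tumours, a highest or lowest value was singled out where its gap to the nearest tumour, as a share of the group's range, exceeded Dixon's critical value. The 27 called genes gave 54 sets of values, of which 5 met this, and chance gives about 1 in 20. On the log2(FPKM + 1) scale, ENSCAFG00000018277, a called gene without a symbol, stood at 8.5 in the low tumour DOS.76 against 6.67 in the next. ADSSL1 stood at 2.5 in the low tumour DOS.116 against 1.33. ATRNL1 was at 2.9 in the high tumour DOS.114 against 2.12. GNAI1 was lowest among the high tumours in DOS.78, at 3.66 against 4.93, and lowest among the low tumours in DOS.75, at 1.61 against 3.4. Without DOS.76 the comparison called 143 genes.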

How the results depend on the processing

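With 24 genes called higher and 3 lower (27 in all), the counts stayed within 1.5 times for all 3 only with a pseudocount of 0.1 FPKM, upper quartile scaling, quantile normalisation, the first library of each pair, and without DOS.112 (26 in all) or DOS.100 (34). Higher genes numbered 7 without a filter, 86 for a slope over all 28 tumours, 154 for the 7 highest against the 7 lowest, 117 with a score without OMD, 5 without SP7, 11 with plain eBayes, 8 without both library pairs and 0 by exact permutation. Lower genes numbered in the same order 0, 66, 68, 36, 0, 1, 0 and 0, and the totals were 7, 152, 222, 153, 5, 12, 8 and 0. Lower genes were also 1 with a mean of at least 1 FPKM, 11 with a score without IBSP, 5 without SPP1 and 0 without DOS.110 and DOS.115. Leaving out 1 tumour gave 4 to 102 higher, 0 to 41 lower and 4 to 143 in all. The fits of 7 against 7 tumours and of the score without OMD also lacked DOS.76 among the low tumours. The unfiltered fit tested more genes (20188), and the cause of the other shifts was not tested. The osteoclast list's median was 1.45 with a pseudocount of 0.1 FPKM. None of the 27 called genes changed sign in the 33 other fits. Of list genes named without a call, ASPN, CLDN7, COL5A1, COL5A2, DLX5, EPB42, HDC, MS4A2, MSX1, PLIN1 and PLIN4 did in at least 1, and the epithelial list's median was 0.07 with a pseudocount of 0.1 FPKM. The fits without both library pairs, without DOS.110 and DOS.115 and by exact permutation were added after seeing the data. No paired analysis was possible because both groups come from 1 labelled group whose labels carry no shared replicate numbers. With 9 tumours a group the smallest exact p is 4.11e-05, too large for a gene alone at that floor to pass the adjustment.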

Other observations

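A slope on the score over all 28 tumours called 86 rising (0.577%) and 66 falling genes (0.443%), 23 of them among the 27 above. It uses the same high and low tumours, so it is no independent result. Differences here are log2(FPKM + 1) per unit of score. The mineralisation list gave 5 rising genes of 10, the osteoclast list 2 (ATP6V0D2 at 0.99 and OSCAR at 0.83) and the osteocyte list 1, DMP1 (1.53 ± 0.31 SE, limma adjusted p = 0.0142). Among genes with a symbol, a mean of at least 5 FPKM in the high or the low tumours and no place among the 27, the largest rise after DMP1 was that of MMP1, the interstitial collagenase, at 1.29 ± 0.26 (SE, limma adjusted p = 0.0142), from 0.0702 to 172 FPKM over the 28 tumours. Further rises were GLDN (0.94), the secreted phospholipase PLA2G5 (0.93), ANO5, a membrane protein mutated in a bone fragility disorder (0.74), and the glycosyltransferase B4GALNT3 (0.71).

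The largest falls among such genes were those of a pair of microfibril proteins. MFAP5 (-1.05 ± 0.26 SE, limma adjusted p = 0.0429) and MFAP4 (-1.05 ± 0.25 SE, limma adjusted p = 0.0376) ran from 0 to 137 and from 0.502 to 492 FPKM. The proteoglycan PODN was at -0.96, the transcription cofactor VGLL3 at -0.84, the guidance factor SEMA3C at -0.83, the transporter SLC1A7 at -0.74, the metalloprotease ADAM33 at -0.73 and the calcium-binding matrix protein SMOC1 at -0.70. By the way they were chosen, none of these 8 passed in the comparison of 9 against 9 tumours. The fibroblast list as a whole gave 1 falling gene of 14.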
